A study of Mus musculus with 7 samples.

Results

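The genes described here are 10 mitochondrially encoded genes of the respiratory chain: mt-Nd1, mt-Nd2, mt-Nd4, mt-Nd5, mt-Nd6, mt-Cytb, mt-Co1, mt-Co2, mt-Co3 and mt-Atp6. They were taken by symbol, and all 10 were found among the 40743 genes listed. The libraries came from retinal microglia (rMG), the resident macrophages of the neural retina, sorted from mice labelled Irf8 KO. Irf8 is a transcription factor that myeloid cells need for their development. The mice were Irf8-/- and carried 1 green fluorescent Cx3cr1 allele (Cx3cr1GFP/+) on a C57BL/6J background, and both groups shared these alleles. The 3 unlasered libraries were from untreated mice, and the 4 lasered libraries from mice taken 7 days after laser injury of the eye, a model of wet macular degeneration. For lasered mice only the central 70% of the retina was used. Each library was made from cells of 3 to 4 pooled mice, about 10000 cells on average, sorted as CD45low CD11b+ Cx3cr1GFP/+ Ly6C- Ly6G-. Wild-type mice are not analysed here, and all values concern laser injury within Irf8 KO. No label says which mice went into which pool, so p-values measure the spread between these libraries.

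The mitochondrial genome is a small circle with genes on both strands, read as long transcripts that are cut into rRNAs, tRNAs and mRNAs. Its protein-coding genes all encode subunits of the machinery of oxidative phosphorylation: the mt-Nd genes of complex I (NADH dehydrogenase), mt-Cytb of complex III (cytochrome bc1), the mt-Co genes of complex IV (cytochrome c oxidase) and the mt-Atp genes of complex V (ATP synthase). The other subunits of these complexes, and all of complex II, are encoded in the nucleus. In macrophages the balance between oxidative phosphorylation and glycolysis is known to shift with activation.

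Total reads per library were 20427558 to 36022954 in the unlasered group and 37133297 to 45919042 in the lasered group, so every lasered library was deeper than every unlasered one. Values are given in CPM, in which the reads of a gene are scaled by the reads of its library, with no division by gene length. Between 1181 reads (mt-Nd6 in unlasered library 1) and 81372 reads (mt-Co1 in lasered library 3) lay behind each value, so counting error was small beside the spread between libraries. The targeted gene Irf8, listed jointly with the overlapping Gm20388, was read at 489 to 530 CPM in unlasered and 463 to 582 CPM in lasered libraries. For this reason the text speaks of libraries labelled Irf8 KO. The 12 microglia markers summed to 34639 to 40423 CPM in unlasered and 33723 to 41687 CPM in lasered libraries, and 0 of them passed the test between groups. Markers of rods, the main photoreceptors, were also read. The 15 rod genes summed to 2582, 21217 and 6169 CPM in unlasered libraries 1 to 3, while lasered libraries 1 to 4 had 1330, 755, 1122 and 571 CPM. None of the 15 rod genes was at 0 throughout. The groups did not overlap in this sum, and 13 of the 15 rod genes were called lower in lasered libraries, against 3.07% of all genes tested. Cone genes, of the other photoreceptor class, lay in the same direction as the rod genes: 8 of 8 tested had a log2 fold change below 0, with a median of -1.86, and 4 were lower without overlap (against 10.7% of all genes), but 0 were called (lowest limma adjusted p = 0.0804). Of the other marker lists, 0 of 7 genes of inner retinal neurons, 0 of 5 monocyte genes and 0 of 2 genes of the retinal pigment epithelium were called. Of 8 Müller glia genes Gfap was called higher and Dkk3 lower. Gfap was low throughout, at 0, 0 and 1.53 CPM in unlasered and 2.18 to 3.87 CPM in lasered libraries. Of 14 immediate early and heat shock genes, which respond to handling of cells, Egr2 was called higher and Ier3, Nr4a1, Hspa1a and Hspa1b lower. Of all genes tested, 6.93% were called in either direction. The part of these genes' cells or states in the members' levels was not tested. Haemoglobin and other red blood cell genes summed to 84.8 CPM in lasered library 1 and to at most 1.42 CPM elsewhere.

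Reads of several members could not be assigned to the mitochondrial genome alone, because the nuclear genome holds near-identical copies that are listed as genes of their own. A copy was called near-identical at 95% identity or more over at least 200 bases. There were 11 such copies, 9 of them copies of 7 members: mt-Nd2, mt-Nd4, mt-Nd5, mt-Co1, mt-Co2, mt-Co3 and mt-Atp6. For mt-Nd1, mt-Nd6 and mt-Cytb none was found. A run of 7 of the copies lies on chromosome 1 of GRCm38, from Gm28439 (24611535 to 24612410) to Gm29216 (24615706 to 24616197), on the minus strand. It includes copies without a single mismatch of mt-Atp6 (Gm10925, 678 bases), mt-Co2 (Gm28661, 681 bases), mt-Co3 (Gm28437, 783 bases) and the first 876 bases of mt-Nd4 (Gm28439). The stretches of mt-Co1 and mt-Nd3 below show how little separates a gene from its copy. Sequences are from the GENCODE M21 annotation of GRCm38, written 5′ to 3′ on the strand of the gene, with capitals at the base that differs and positions counted from 1 at the first base of the mitochondrial gene. Within these stretches the substitutions are A1066T between mt-Co1 and Gm29216, T1072C between mt-Co1 and Gm13340 (a copy on chromosome 2), and T3C between mt-Nd3 and Gm28438. The first line of each set gives the mitochondrial gene.
mt-Co1, chrM:6390-6447, plus strand: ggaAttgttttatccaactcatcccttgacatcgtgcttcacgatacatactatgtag
Gm29216, chr1:24616131-24616188, minus strand: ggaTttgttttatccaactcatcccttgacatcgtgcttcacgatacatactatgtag
Gm13340, chr2:22588528-22588585, minus strand: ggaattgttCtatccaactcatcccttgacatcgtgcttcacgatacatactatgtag
mt-Nd3, chrM:9459-9515, plus strand: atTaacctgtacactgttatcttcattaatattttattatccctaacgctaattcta
Gm28438, chr1:24613063-24613119, minus strand: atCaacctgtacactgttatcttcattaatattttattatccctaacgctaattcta

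mt-Nd6 differs from the other members in strand. Of the 10 members only mt-Nd6 is encoded on the minus strand of chromosome M, so its own sequence is rich in G and poor in C: 28.1% G and 5.97% C over 519 bases, against 16.1% G and 23.8% C for mt-Co1 and 13.8% G and 25.1% C for mt-Co3. The first 60 bases of the 3 genes, with G in capitals, show this contrast.
mt-Nd6, chrM:14011-14070, minus strand: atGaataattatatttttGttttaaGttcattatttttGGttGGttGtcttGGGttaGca
mt-Co1, chrM:5328-5387, plus strand: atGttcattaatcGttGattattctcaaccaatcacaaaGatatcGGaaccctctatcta
mt-Co3, chrM:8607-8666, plus strand: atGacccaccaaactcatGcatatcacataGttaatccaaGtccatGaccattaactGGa

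The cDNA kit was primed on poly(A) and does not mark strand, so a read on mt-Nd6 and a read from a transcript of the opposite strand cannot be told apart. Neighbouring genes also share bases. mt-Atp8 and mt-Atp6 overlap on the same strand by 43 bases, shown next. The last 14 bases of mt-Nd5 (chrM:13552-13565) are also the last 14 bases of mt-Nd6 on the other strand. Some entries of the table name a member jointly with the gene next to it. Such entries belong to the values of mt-Nd1, mt-Nd2, mt-Nd4, mt-Co2 and mt-Atp6, but to none of the other 5 members, mt-Nd5 and mt-Nd6 included. A joint entry does not always mean shared bases, since mt-Co2 overlaps no other gene in the annotation.
mt-Atp8 and mt-Atp6, chrM:7927-7969, plus strand: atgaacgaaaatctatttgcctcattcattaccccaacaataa

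The largest differences between groups were those of mt-Co1 and mt-Co3, which encode subunits of complex IV, and these were the 2 members called. They rose after laser injury by factors of 1.84 and 1.89 of the means. All 10 members had a higher mean in lasered libraries, where 48.4% of all genes tested had a log2 fold change above 0. In the limma fit of log2(CPM + 1) over 17496 genes, 2 of 10 members were called higher at an adjusted p under 0.05 and 0 lower, against 3.86% of all genes called higher. 6 of the 10 had an unadjusted p under 0.05, against 22.7% of all genes. The groups did not overlap for 2 of the 10, mt-Co1 and mt-Co3, against 10.4% of all genes higher without overlap. The 10 members moved together over the libraries (r = 0.76 to 0.99 with their mean), so these counts are not of independent genes. The median log2 fold change of the 10 was 0.49, and that of all genes tested was -0.014. In bulk samples, a change in the number of cells of a type and a change in RNA per cell cannot be told apart.

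Between groups, and at the shallow end of each, depth moved with these levels. Unlasered library 1, the shallowest of all, had the lowest level of its group for 10 of 10 members. Lasered library 4, the shallowest lasered library, had the lowest of its group for 10 of 10. The order did not follow depth among the remaining libraries: unlasered library 2 (34242962 reads) was the highest of its group for 9 of 10 members, although library 3 (36022954 reads) was deeper, and lasered library 1 was the highest for 4 members although shallower than libraries 2 and 3. With the log2 of library reads as a covariate, an alternative chosen after seeing the data, 0 members were called and their median log2 fold change was 0.043. The log2 fold changes of mt-Co1 and mt-Co3 in that fit were 0.57 (limma adjusted p = 0.182) and 0.50 (adjusted p = 0.324). Since the groups do not overlap in depth, laser injury and depth cannot be told apart by this fit.

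**Figure D1:**
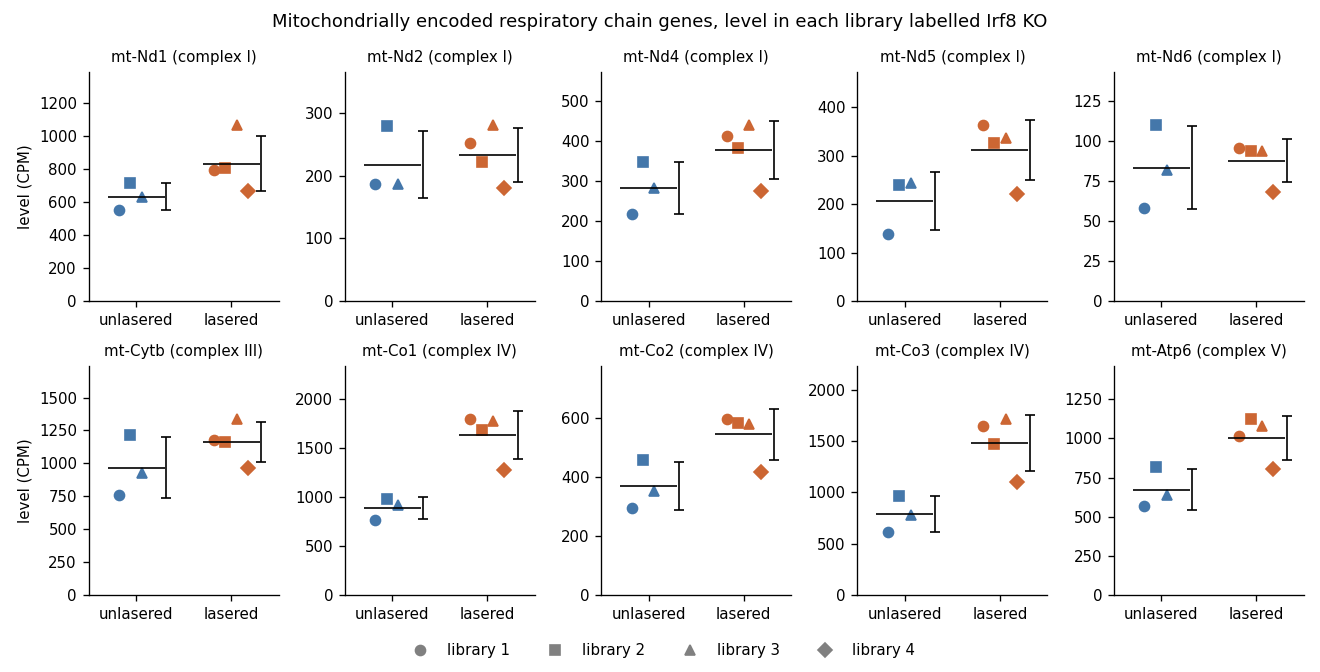
Level of each of the 10 genes in CPM (y axis, starting at 0) in 3 unlasered (blue) and 4 lasered (orange) libraries labelled Irf8 KO. Symbols mark the library number, which no label pairs across groups, horizontal lines the mean and bars the SD. Only the panels of mt-Co1 and mt-Co3 show no overlap between groups, and unlasered library 1 and lasered library 4 lie lowest in their groups in every panel.

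In complex IV, mt-Co1 (ENSMUSG00000064351, chromosome M, 5328 to 6872, GRCm38) encodes the catalytic subunit of cytochrome c oxidase, which holds the site where oxygen is reduced. Its level was 760, 980 and 917 CPM in unlasered libraries 1 to 3 and 1792, 1677, 1772 and 1270.5 CPM in lasered libraries 1 to 4. Every lasered library was above every unlasered one, with lasered library 4 the nearest. The log2 fold change was 0.87 (SE 0.15, limma adjusted p = 0.0158).

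mt-Co3 (ENSMUSG00000064358, chromosome M, 8607 to 9390) encodes another core subunit of the same enzyme. It was read at 616, 965 and 779 CPM in unlasered and at 1645, 1474, 1714 and 1105 CPM in lasered libraries. The groups did not overlap, and the gap between unlasered library 2 and lasered library 4 was the smallest. The log2 fold change was 0.92 (SE 0.19, limma adjusted p = 0.0281). The call of mt-Co3 was lost when unlasered library 1 (adjusted p = 0.0725), lasered library 1 (0.0763), 2 (0.0761) or 3 (0.0741) was left out, and that of mt-Co1 without lasered library 2 (0.0554).

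mt-Co2 (ENSMUSG00000064354, chromosome M, 7013 to 7696), the subunit that receives electrons from cytochrome c, had 294, 456 and 353 CPM in unlasered and 595, 583, 578 and 416 CPM in lasered libraries. The 3 lasered libraries 1 to 3 lay close together and above the unlasered ones, while lasered library 4 lay below unlasered library 2. Its log2 fold change of 0.57 (SE 0.18) had a limma adjusted p of 0.10 and was not called.

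In complex V, mt-Atp6 (ENSMUSG00000064357, chromosome M, 7927 to 8607) encodes a subunit of the proton channel of ATP synthase. It was read at 566, 819 and 636 CPM in unlasered and at 1015, 1123, 1079 and 806 CPM in lasered libraries. The groups overlapped only through unlasered library 2 and lasered library 4. The log2 fold change was 0.58 (SE 0.16, limma adjusted p = 0.0666). It was called without unlasered library 2 (0.73, adjusted p = 0.0483) and without lasered library 4 (0.69, adjusted p = 0.0483), and also with median-of-ratios scaling (0.67, adjusted p = 0.0408) and with DESeq2 on recovered reads (0.65, adjusted p = 0.0173).

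In complex III, mt-Cytb (ENSMUSG00000064370, chromosome M, 14145 to 15288) encodes cytochrome b, the only subunit of this complex that the mitochondrial genome holds. Its level was 760, 1216 and 924 CPM in unlasered and 1181, 1166, 1336 and 964 CPM in lasered libraries. Unlasered library 2 lay above 3 of the 4 lasered libraries. The log2 fold change was 0.28 (95% CI -0.11 to 0.67, limma adjusted p = 0.378).

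Of complex I, 5 subunits are among the members, and 0 of the 5 were called. mt-Nd1 (ENSMUSG00000064341, chromosome M, 2751 to 3707), a core subunit of the membrane arm, had 553, 713 and 632 CPM in unlasered and 794, 804, 1067 and 670 CPM in lasered libraries. Lasered library 3 was the highest and lasered library 4 lay within the unlasered range. The log2 fold change was 0.38 (95% CI 0.01 to 0.76, limma adjusted p = 0.208).

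mt-Nd4 (ENSMUSG00000064363, chromosome M, 10167 to 11544) and mt-Nd5 (ENSMUSG00000064367, chromosome M, 11742 to 13565) encode proton-pumping subunits of the membrane arm. mt-Nd4 was read at 218, 347 and 283 CPM in unlasered and at 414, 382, 440 and 274 CPM in lasered libraries (log2 fold change 0.42, 95% CI -0.04 to 0.88, limma adjusted p = 0.258). mt-Nd5 was read at 137, 239 and 243 CPM in unlasered and at 363, 326, 337 and 221 CPM in lasered libraries (log2 fold change 0.62, 95% CI 0.08 to 1.15, limma adjusted p = 0.161). In both, lasered libraries 1 to 3 lay above all unlasered libraries and lasered library 4 lay within their range, below unlasered libraries 2 and 3.

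mt-Nd2 (ENSMUSG00000064345, chromosome M, 3914 to 4951), a further pumping subunit, had 187, 279 and 187 CPM in unlasered and 252, 222, 280 and 180 CPM in lasered libraries. mt-Nd6 (ENSMUSG00000064368, chromosome M, 13552 to 14070, minus strand) had 57.8, 110 and 81.8 CPM in unlasered and 95.6, 93.4, 93.4 and 67.7 CPM in lasered libraries. In both genes the groups lay across each other, and the highest mt-Nd6 value was that of unlasered library 2. The log2 fold changes were 0.11 for mt-Nd2 (95% CI -0.33 to 0.55, limma adjusted p = 0.793) and 0.11 for mt-Nd6 (95% CI -0.39 to 0.61, limma adjusted p = 0.816). These intervals hold both a lower level and a rise of 0.55 or 0.61 on the log2 scale.

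**Figure D2:**
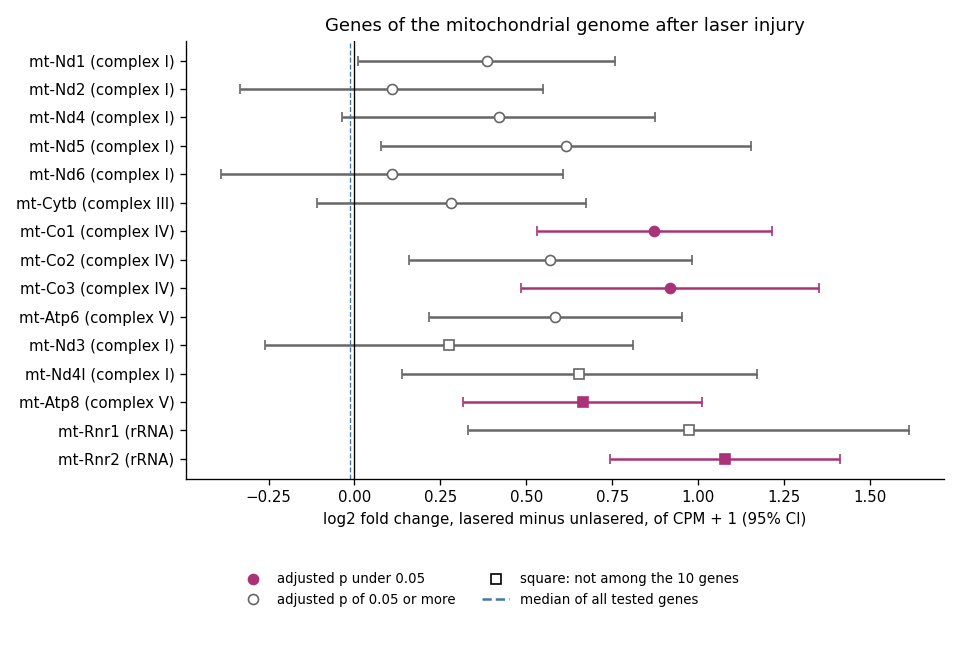
Log2 fold change of CPM + 1, lasered minus unlasered (x axis), with its 95% confidence interval from limma, for the 10 genes (circles) and for 5 other genes of the mitochondrial genome (squares). Filled symbols mark an adjusted p under 0.05: mt-Co1, mt-Co3, mt-Atp8 and mt-Rnr2. The dashed line at -0.014 is the median of all genes tested.

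Together the 10 members took 0.415%, 0.612% and 0.503% of the reads of unlasered libraries 1 to 3 and 0.815%, 0.785%, 0.870% and 0.597% of lasered libraries 1 to 4. The mean was 0.510% ± 0.0989 (SD, n = 3) in the unlasered and 0.767% ± 0.118 (SD, n = 4) in the lasered group. The 2 groups overlapped by 1 pair, unlasered library 2 over lasered library 4 (exact permutation test, two-sided p = 0.114, where 0.0571 is the smallest possible). Unlasered library 2 was also the library with the highest rod sum, and photoreceptors are cells rich in mitochondria. The part of rod RNA in the members' levels was not tested. Without unlasered library 2, the median log2 fold change of the members was 0.66. With the rod genes and Apoe, the most abundant transcript, taken out of the totals, the summed share was higher in lasered libraries by 0.25 percentage points, and by 0.26 with them. This changes the scaling only, since any mitochondrial reads from rods stay in the members' sum.

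The mixture of the members also differed between groups. Complex I took 27.8%, 27.6% and 28.3% of the members' reads in unlasered libraries and 23.5%, 23.3%, 25.5% and 23.6% in lasered libraries. All 4 lasered libraries were below all 3 unlasered ones. The mean was 27.9% ± 0.393 (SD, n = 3) in unlasered and 24.0% ± 1.02 (SD, n = 4) in lasered libraries, with p = 0.0571 in a two-sided exact permutation test. This is the smallest p that 3 against 4 libraries allow, so no such comparison can pass 0.05.

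Complex IV took 40.3%, 39.2% and 40.7% in unlasered libraries and 49.5%, 47.6%, 46.7% and 46.7% in lasered libraries, again without overlap. The genes of a complex did not all differ alike. mt-Co1 (mean 17.5% in unlasered and 21.3% in lasered libraries) and mt-Co3 (15.4% and 19.3%) were higher without overlap, while mt-Co2 overlapped at 7.01% to 7.44% and 6.65% to 7.43%. In complex I, mt-Nd2, mt-Nd4 and mt-Nd6 were lower without overlap, the gap of mt-Nd4 only as long as reads of nuclear copies were left out. mt-Nd1 overlapped (11.6% to 13.3% against 9.75% to 12.3%). Its mean share was 12.5% in unlasered and 10.9% in lasered libraries, the largest difference of means among the mt-Nd members. mt-Nd5 had a mean share of 4.01% in unlasered and 4.05% in lasered libraries. mt-Cytb took 18.3%, 19.9% and 18.4% against 14.5%, 14.8%, 15.4% and 16.1%, without overlap and lower in lasered libraries. For mt-Atp6 the groups overlapped, at 12.6% to 13.6% and 12.4% to 14.3%. Since the shares of a library add to the whole, these are not independent of each other.

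The share of mt-Nd6 was 1.39%, 1.79% and 1.63% in unlasered and 1.17%, 1.19%, 1.07% and 1.13% in lasered libraries. All lasered libraries were below all unlasered ones and lay closer together (exact permutation test, two-sided p = 0.0571, the smallest possible). This was not particular to the member of the other strand: mt-Nd2, on the plus strand, took 4.50%, 4.56% and 3.71% in unlasered and 3.09%, 2.82%, 3.23% and 3.01% in lasered libraries, and the mean share in lasered libraries was 0.713 of that in unlasered libraries for both genes. mt-Nd4 was at 5.26% to 5.67% and 4.59% to 5.08%. With the reads of near-identical copies added to their genes, the difference was -0.34 percentage points for mt-Nd6 and -3.24 for complex I, with the same order of groups. For mt-Nd4 the groups then overlapped in share. It had 280 CPM in unlasered library 1, where the members took 0.614% of reads, and 600 CPM in lasered library 3, where they took 1.31%. The ratio of mt-Cytb to mt-Co1, 2 genes of which mt-Cytb has no near-identical copy, was 1.00, 1.24 and 1.01 in unlasered and 0.659, 0.695, 0.754 and 0.759 in lasered libraries. In unlasered libraries the reads listed for the 2 genes alone were thus near equal or higher for mt-Cytb, and in lasered libraries mt-Co1 had more. With the reads of near-identical copies added, mt-Co1 lay above mt-Cytb in every library. In unlasered libraries it then had 1173, 1494 and 1336 CPM, against 760, 1216 and 924 CPM for mt-Cytb. Which of the 2 genes was higher in unlasered libraries thus rests on how copies are counted. Lasered library 4, the lowest of its group in the level of every member, lay on the lasered side of each gap in these shares and in the ratio.

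**Figure D3:**
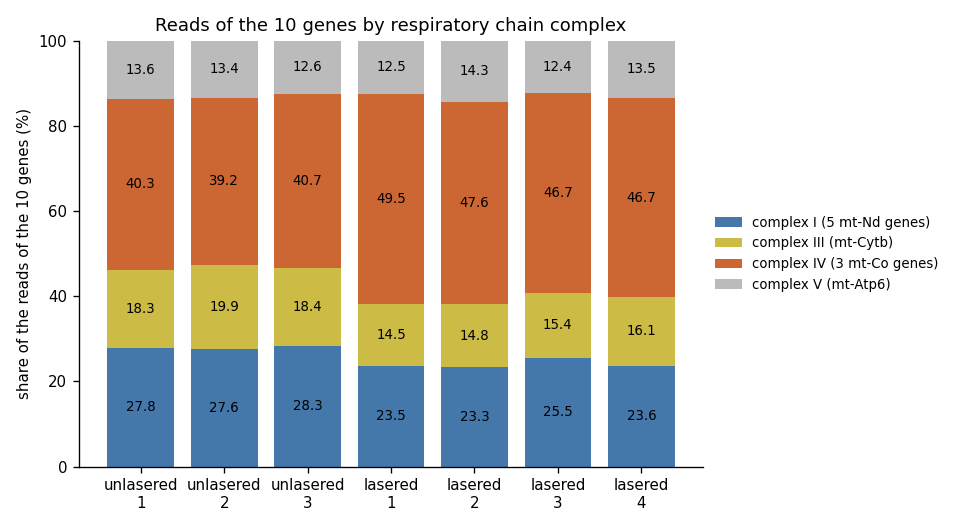
Share of the reads of the 10 genes (y axis, percent) that falls on the genes of complex I, III, IV and V in each of the 7 libraries. In lasered libraries complex I is at 23.3% to 25.5% and complex IV at 46.7% to 49.5%, against 27.6% to 28.3% and 39.2% to 40.7% in unlasered libraries.

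Per kilobase of gene, mt-Co3 and mt-Atp6 had the highest levels in unlasered libraries, 1003 ± 222 and 989 ± 192 CPM per kb (SD, n = 3). They were followed by mt-Cytb (845), mt-Nd1 (661), mt-Co1 (573) and mt-Co2 (537 CPM per kb). The other 4, mt-Nd2 (210), mt-Nd4 (205), mt-Nd6 (160) and mt-Nd5 (113 CPM per kb), were lower. The order of neighbours was the same in all 3 libraries except for mt-Co3 and mt-Atp6, mt-Co1 and mt-Co2, and mt-Nd2 and mt-Nd4, which changed places in 1 library each. In lasered libraries mt-Co3 (1893 ± 347, SD, n = 4) stood above mt-Atp6 (1477 ± 206) in 4 of 4 libraries, and mt-Co1 (1054 CPM per kb) came next beside mt-Cytb (1016), above it in 2 of 4. mt-Nd5 (171) and mt-Nd6 (169) were last, in changing order. The place of a gene in this order rests on how copies are counted: with the reads of near-identical copies added, mt-Co2 came right after mt-Co3 and mt-Atp6 in both groups, at 1145 CPM per kb in unlasered and 1706 in lasered libraries.

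The other genes of the mitochondrial genome were read against the members. mt-Rnr2, the large ribosomal RNA, was 919, 1255 and 985 CPM in unlasered and 2528, 2157, 2335 and 1850 CPM in lasered libraries. It rose without overlap between groups, with a log2 fold change of 1.08 (SE 0.15, limma adjusted p = 0.0082). mt-Rnr1, the small ribosomal RNA, was read at 28.2, 56.6 and 38.0 CPM in unlasered and at 111, 82.4, 78.2 and 52.1 CPM in lasered libraries, with the lowest lasered library below unlasered library 2 (log2 fold change 0.97, limma adjusted p = 0.0775).

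Among the 3 protein-coding genes that are not members, mt-Atp8, which overlaps mt-Atp6 and encodes a small subunit of ATP synthase, rose. It had 88.2, 124 and 98.5 CPM in unlasered and 157, 184, 173 and 140 CPM in lasered libraries (log2 fold change 0.66, SE 0.15, limma adjusted p = 0.0374). mt-Nd4l also had no overlap between groups (9.64 to 16.7 CPM against 17.1 to 27.0 CPM) but was not called (adjusted p = 0.125), and mt-Nd3 had a log2 fold change of 0.28 (adjusted p = 0.547). Of the 22 tRNA genes 10 were tested and 0 were called, with log2 fold changes from -0.68 to 0.44 and a median of 0.013. Their sum was 62.0, 80.9 and 59.8 CPM in unlasered and 81.4, 84.2, 80.5 and 74.1 CPM in lasered libraries. All 37 genes of the mitochondrial genome together took 0.529% to 0.772% of unlasered and 0.815% to 1.146% of lasered libraries, and this sum did not overlap between groups.

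Few of the nuclear genes of oxidative phosphorylation were called. Of 84 nuclear genes named for complexes I to V, 82 were listed and 80 tested, with 1 called higher and 1 lower (6.93% of all genes were called in either direction). Their median log2 fold change was -0.05, with 30 above 0 and 50 below, and the pooled SD of their mean over libraries was 0.18 on the log2 scale. In complex I, 0 of 35 tested genes were called and the median was -0.08, against 0.38 for the 7 mitochondrial genes of this complex. In complex III (9 tested) and complex V (18 tested) 0 were called, with medians of -0.02 and -0.05, and in complex II, which has no mitochondrial gene, 0 of 4 with a median of 0.05.

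In complex IV, 14 nuclear genes were tested and the median was -0.04, against 0.87 for the 3 mt-Co genes. The gene called higher was Cox7a2l. It was read at 67.2, 76.8 and 59.3 CPM in unlasered and at 99.9, 113, 102 and 92.8 CPM in lasered libraries, without overlap (log2 fold change 0.59, SE 0.14, limma adjusted p = 0.0371). The gene called lower was Cox6a2, the form of a complex IV subunit known from heart and skeletal muscle, at 8.47, 7.97 and 8.49 CPM against 2.33, 3.39, 2.40 and 3.07 CPM (log2 fold change -1.30, SE 0.19, limma adjusted p = 0.0088). The 2 groups of Cox6a2 values lay far apart and each within a narrow range. The summed CPM of the members divided by that of the nuclear genes was 0.570, 0.758 and 0.881 in unlasered and 1.20, 1.07, 1.25 and 0.908 in lasered libraries, without overlap, with lasered library 4 nearest to the unlasered ones.

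**Figure D4:**
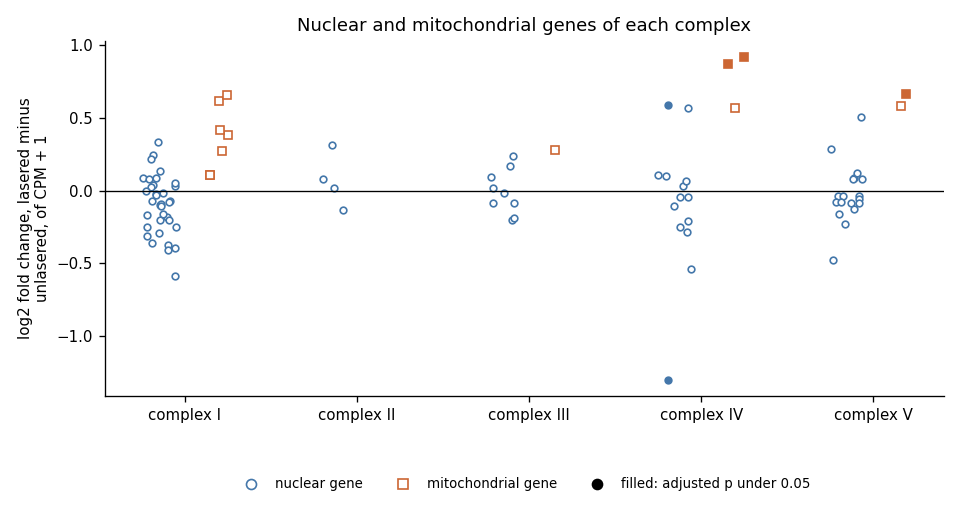
Log2 fold change of CPM + 1, lasered minus unlasered (y axis), of nuclear (blue circles) and mitochondrial (orange squares) genes of complexes I to V. Each symbol is 1 gene, filled at an adjusted p under 0.05, and the sideways spread within a column has no meaning. The nuclear medians lie between -0.08 and 0.05, and 13 of 13 mitochondrial genes lie above 0.

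Genes that transcribe, copy and process the mitochondrial genome were read next. Of 15 tested genes of transcription and replication 0 were called (median log2 fold change -0.12), and of 15 tested genes of mitochondrial RNA processing 0 were called (median 0.07). Polrmt, the mitochondrial RNA polymerase, was read at 14.3 ± 3.76 CPM (SD, n = 3) in unlasered and 12.9 ± 1.94 CPM (SD, n = 4) in lasered libraries (log2 fold change -0.12, limma adjusted p = 0.801). Tfam, which packs mitochondrial DNA and starts its transcription, was read at 29.2 ± 4.44 and 31.4 ± 4.34 CPM (log2 fold change 0.10, limma adjusted p = 0.765).

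Of 8 tested regulators of mitochondrial biogenesis 1 was called, lower. Ppargc1a, which encodes the coactivator PGC-1alpha, had 2.25, 16.6 and 7.5 CPM in unlasered and 1.97, 1.02, 0.174 and 0.215 CPM in lasered libraries. The groups did not overlap, although unlasered library 1 was near lasered library 1, and the unlasered order was that of the rod sum (log2 fold change -2.20, SE 0.55, limma adjusted p = 0.0456). The part of rod RNA in the Ppargc1a values was not tested. Of 8 tested genes of the mitochondrial stress response 0 were called (median -0.27).

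Reads listed for the nuclear copies ranged from a small part of those of the mitochondrial gene to more than them. Gm28437 was read at 621, 975 and 784 CPM in unlasered and at 1668, 1493, 1727 and 1136 CPM in lasered libraries, which is 1.01 to 1.03 times the value of mt-Co3 in the same library. The ratio was 0.972 to 0.989 for Gm10925 and mt-Atp6, and 0.979 to 1.00 for Gm28661 and mt-Co2. These 3 copies hold nearly the whole gene without a mismatch. The other 2 copies without a mismatch differed from this: Gm28439, which matches 63.6% of mt-Nd4, had 0.282 to 0.365 of the value of that gene, and Gm10222 had 1.16 to 1.47 times that of mt-Nd4l. Of the copies with 1 mismatch, Gm28438 had 0.876 to 1.00 of the value of mt-Nd3, and Gm29216, which matches only 31.3% of mt-Co1, had 0.315 to 0.440 of it. The ratio was 0.0931 to 0.105 for Gm13340 (97.6% identity over 1545 bases) and 0.0249 to 0.0350 of mt-Nd5 for Gm4076 (95.2% over 954 bases).

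Of the 11 copies 3 were called higher and 1 lower, against 3.86% and 3.07% of all genes tested. Called higher were Gm28437 (log2 fold change 0.93), Gm13340 (0.76) and Gm29216 (0.64), copies of the called members mt-Co3 and mt-Co1. Since reads on identical stretches cannot be told apart, these calls are not independent of those of mt-Co3 and mt-Co1. The copy called lower was Gm13339, 96.7% identical to 510 bases of mt-Nd2, at 11.2, 16.1 and 10.7 CPM in unlasered and 7.66, 7.28, 5.20 and 6.62 CPM in lasered libraries (log2 fold change -0.82, SE 0.21, limma adjusted p = 0.0492). It lay opposite to its gene, whose log2 fold change was 0.11. With the reads of copies added to their genes, mt-Co1 (log2 fold change 0.81, limma adjusted p = 0.0166) and mt-Co3 (0.92, adjusted p = 0.0265) were called as before, and the members with copies took 0.614% to 0.905% of unlasered and 0.905% to 1.31% of lasered libraries. From which locus a read on an identical stretch came cannot be told from these values. The 8 other copies matched, with lower identity or over a shorter stretch, had at most 6.97 CPM.

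**Figure D5:**
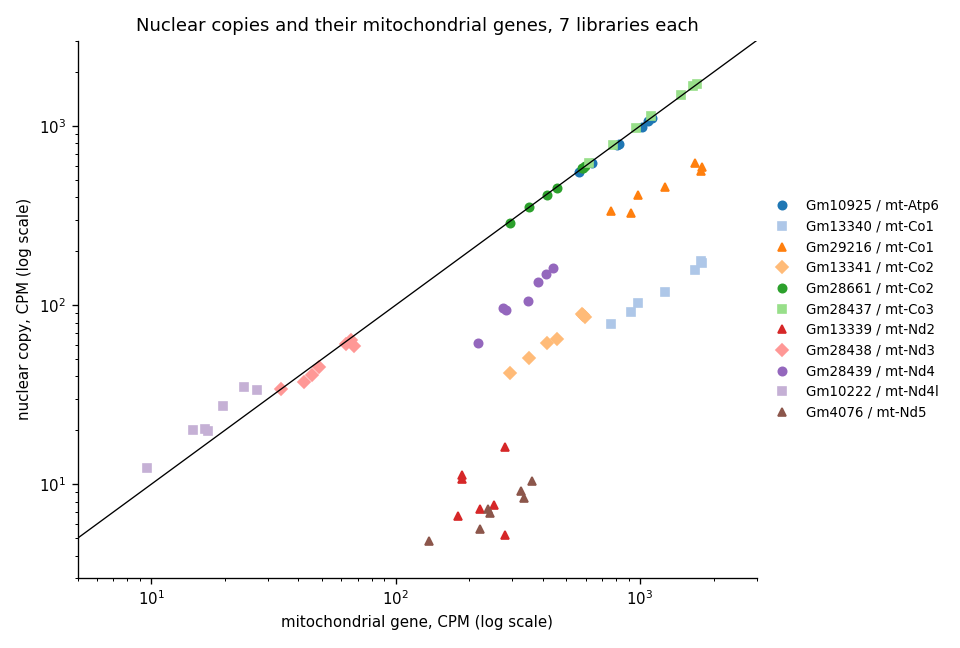
CPM of 11 near-identical nuclear copies (y axis, log scale) against CPM of the mitochondrial gene they match (x axis, log scale), 1 point per library. The line marks equal values. Copies of mt-Co3, mt-Atp6 and mt-Co2 without mismatch lie on the line, while Gm4076 and Gm13339 lie at 0.0186 to 0.0601 of the level of their genes.

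The members followed each other across the 7 libraries, from r = 0.76 (mt-Nd2) and 0.79 (mt-Nd6) to r = 0.99 (mt-Nd4 and mt-Co2) with the mean log2(CPM + 1) of the 10, to which each contributes. Outside the mitochondrial genome and its copies, 10262 genes with a mean of at least 10 CPM were ranked by Pearson's r with that mean over the 7 libraries. The 5 most alike were Oas2 (r = 0.98), an interferon-induced sensor of double-stranded RNA, Natd1 (0.98), Chp1 (0.98), a calcium-binding partner of sodium-proton exchangers, Rab5c (0.97), a GTPase of early endosomes, and Ctla2b (0.96). These are the highest of many values over few libraries that share their depth, and are a description only. Oas2 was read at 14.8, 29.8 and 25.3 CPM in unlasered and at 39.9, 40.5, 44.6 and 23.3 CPM in lasered libraries, with the same lowest library in each group as the members.

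By the thresholds of the study's methods, a log2 fold change beyond 1.5 and a mean of at least 100 in a group, applied here to CPM with the adjusted p, 0 of the 10 members qualified, against 0.269% of all genes tested. The mean minimum was met by 9 of the 10 members, all but mt-Nd6.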

How the data were processed

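RNA from sorted rMG was amplified with the SMARTer Ultra Low Input kit, made into Nextera XT libraries and sequenced. The authors' pipeline took out adapters and duplicates, mapped with Bowtie2 to the mouse genome (GRCm38 in the submitters' processing notes), counted with HTSeq on Ensembl annotation 90 and normalised with DESeq2, with no tool versions given for these. The deposited values are headed TPM, but all 40743 in each library are whole multiples of 1 step, so the deposited table holds CPM. Whole reads were recovered for 100% of values (tolerance 0.0001 CPM). Duplicate removal can lower the level of short, deeply read genes such as the members, which had 1.54 to 100.4 reads per base, and its effect was not tested. The smallest level that 3 reads allow was 0.0653 to 0.147 CPM, which covers counting error only. Libraries within a group differed far beyond counting noise, so none was counted as a duplicate.

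The 17496 genes that reached 1 CPM in 3 or more libraries were fitted on log2(CPM + 1) with limma 3.58.1 (trend, robust, R 4.3.3), lasered against unlasered, two-sided, with Benjamini-Hochberg adjustment. Shares were compared with exact permutation tests (scipy 1.17.1). Nuclear copies were found with blastn 2.17.0 on GENCODE M21 transcripts. Members, gene lists and alternatives were chosen with earlier results of these data known. Named genes were the members, other protein and rRNA genes of the mitochondrial genome, called tRNA genes, called genes of the nuclear lists, Polrmt, Tfam, Ppargc1a, Irf8 and the 5 genes most alike; Apoe and the copies were named after their values were seen. Alternatives were a pseudocount of 0.1, no filter, a mean of at least 10 reads, median-of-ratios scaling, totals without the mitochondrial genome, edgeR 4.0.16 and DESeq2 1.42.0 on recovered reads, the replicate number as a block and each library left out. After seeing the data, copies added, depth as covariate and totals without Apoe and rod genes were also tried. The fit was tested on simulated data with the same dispersion for all genes and genes varying independently. That test does not cover genes that move together, as the members did. Python 3.11.15 with pandas 2.3.3, numpy 2.4.6 and matplotlib 3.10.9 was used.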

Additional observations from a re-analysis of the deposited data

Results flagged for a closer look

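Of 21 levels and shares examined over the 4 lasered libraries, 3 had a library far from the others by Dixon's test. Chance alone gives this in about 1 of 20. The members' levels moved together, so the 21 are not independent and their count cannot be set against that share. mt-Co2 in lasered library 4 was at 416 CPM, below the other 3 libraries at 578 to 595 CPM. mt-Nd6 in the same library was at 67.7 CPM, below 93.4 to 95.6 CPM. The complex I share of the members' reads in lasered library 3 was 25.5%, above 23.3% to 23.6% in the other 3 libraries.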

How the results depend on the processing

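The 1213 genes called became 385 with no filter on low values, 3168 with DESeq2 on recovered reads (1579 higher, 1589 lower), 3 with the replicate block and 273 with log2 library reads as a covariate (56 higher, 217 lower). They were 264 to 1248 with each library left out. edgeR on recovered reads called 713 genes higher and 691 lower, median-of-ratios scaling 930 and 497 (median of all genes 0.059, of members 0.58; 3 members called, mt-Co1, mt-Co3 and mt-Atp6). Of the members, 2 were called in the limma fit as reported, 1 with no filter (mt-Co1), 4 with DESeq2 (mt-Co1, mt-Co2, mt-Co3, mt-Atp6), 0 with the replicate block, 0 with the depth covariate and 0 to 3 with a library left out. Leaving out lasered library 2 gave 0. At an unadjusted p under 0.05, limma gave 3395 genes with the block and 2574 with the covariate. The median log2 fold change of the members was 0.043 with the depth covariate, 0.63 with the replicate block and 0.32 to 0.66 with a library left out (0.32 without unlasered library 1). Under the covariate the log2 fold changes turned to -0.17 for mt-Nd2, -0.030 for mt-Nd4, -0.026 for mt-Nd5, -0.41 for mt-Nd6 and -0.083 for mt-Cytb. With a library left out, that of mt-Nd6 was -0.13 (without unlasered library 1) to 0.33. For mt-Co1 it was 0.57 to 0.99 over 17 alternatives (14 calls, adjusted p 2.0e-05 to 0.182) and for mt-Co3 0.50 to 1.08 (10 calls, adjusted p 0.00054 to 0.324). Same-numbered libraries did not vary together (correlations of -0.18, -0.13 and -0.02 for numbers 1 to 3), so the numbers do not pair them. The replicate block and paired differences compare numbers 1 to 3 only, so lasered library 4 has no part in their differences. As paired differences, the members' share of the library was 0.313 percentage points higher. The shares of mt-Nd6 and complex I among members differed by -0.457 and -3.78 points. These are the same values as with lasered library 4 left out. Over all libraries left out in turn, the 3 differences were 0.209 to 0.313, -0.565 to -0.366 and -4.40 to -3.66 points. The genes past the study's thresholds, 47, were 15 to 57 with a library left out. The cause of these changes was not tested. Levels of mt-Nd6 and mt-Nd5 rest on the fewest reads per base, and pools of unknown make-up, 3 and 4 libraries, and groups that differ in depth, retinal region and rod RNA limit every comparison.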
